A study of Arabidopsis thaliana with 12 samples.

Results

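The genes described here make the waxes and fatty alcohols of the plant surface. They are 10 named loci of Arabidopsis thaliana: KCS1 (AT1G01120), KCS6 (AT1G68530), CER1 (AT1G02205), CER2 (AT4G24510), CER3 (AT5G57800), CER4 (AT4G33790), FAR1 (AT5G22500), FAR4 (AT3G44540), FAR5 (AT3G44550) and FAR8 (AT3G44560). Of these, 8 are among the 18884 genes of the count table used here. FAR4 and FAR5 are not analysed here. The members were listed by function, with earlier results of these data known. FAR8 was instead chosen by its measured counts, for its rise in the TPR1-GFP eds1-2 line. Its values in that line are therefore a description with no test. FAR4, FAR5 and FAR8 lie on the arm of chromosome 3 that also holds EDS1, in the stretch linked to the eds1-2 allele.

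Polyadenylated RNA was sequenced from untreated leaves of 5-week-old soil-grown plants (10 h of light a day, 22 °C, 60% relative humidity), in 3 libraries for each of 4 genotypes. TPR1-GFP eds1-2 carries the pTPR1:TPR1-GFP transgene with the eds1-2 mutation, which removes EDS1, a lipase-like hub of immune signalling. TPR1-GFP sid2-1 carries the same transgene with the sid2-1 mutation of ICS1, the isochorismate synthase that makes most pathogen-induced salicylic acid. TPR1-GFP carries the transgene in Col-0, driven by TPR1's own promoter, and TPR1 is a transcriptional corepressor of the TOPLESS family. Col-0 is the wild type and has no transgene, so the 3 other genotypes share the transgene. Each double line adds its named mutation together with any chromosome stretch linked to it. The mutation and its linked stretch cannot be told apart here. The labels do not say how many transformants or plants stand behind a line, or how often a double line was backcrossed. Harvests came from 3 independent experiments, but which library belongs to which is not stated, so p-values here measure only the spread between libraries.

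Library totals ran from 19628974 to 32018583 counts. Levels are in CPM, counts scaled to a common library size. TPR1, native gene and transgene together, ranged from 990 to 1327 in TPR1-GFP eds1-2, from 776 to 1305 in TPR1-GFP sid2-1 and from 1539 to 1748 in TPR1-GFP, against 68.3 to 74.1 in Col-0. Against TPR1-GFP its log2 change was -0.54 (SE 0.17) in TPR1-GFP eds1-2 and -0.57 (SE 0.17) in TPR1-GFP sid2-1. Comparisons of a double line with TPR1-GFP thus also differ in TPR1 level. EDS1 stood at 13.5 to 15.99 CPM in TPR1-GFP eds1-2, against 130 to 173 CPM in TPR1-GFP and 29.6 to 60.8 CPM in Col-0. Its log2 change in TPR1-GFP eds1-2 was -3.32 (SE 0.25) against TPR1-GFP and -1.44 (SE 0.24) against Col-0. In TPR1-GFP against Col-0 it was 1.88 (SE 0.24). The leaf mesophyll markers RBCS1A, RBCS3B, RCA and CA1 were high in all libraries, with sums given below beside the other markers, and none of the 3 anther tapetum markers was among the genes analysed.

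Waxes start as very-long-chain acyl chains that the fatty acid elongase builds in the endoplasmic reticulum of epidermal cells. KCS enzymes are its condensing subunits, and CER2 helps KCS6 reach the longest chains. From there chains go to aldehydes and alkanes, which need CER1 and CER3 acting together, or are reduced to primary alcohols by CER4, the FAR enzyme of the shoot cuticle. FAR1, FAR4 and FAR5 are relatives that make the fatty alcohols of suberin in roots, seed coats and wounds, and FAR8 is an additional member of that family.

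The start regions of 5 members are shown because the results turn on these genes: FAR8 had reads in the eds1-2 line, FAR1 and CER2 fell in TPR1-GFP, KCS6 fell in the eds1-2 line and CER3 rose in TPR1-GFP. Each is the 250 bases before the annotated gene start in RefSeq's TAIR10.1, read 5′ to 3′ on the gene's own strand. They are chr3:16150873-16151122 (plus) for FAR8, chr5:7470078-7470327 (plus) for FAR1, chr4:12660437-12660686 (plus) for CER2, chr1:25715025-25715274 (minus) for KCS6 and chr5:23419934-23420183 (plus) for CER3. Capitals mark TAGTTA, the reverse complement of TAACTA, a word that the wax regulator MYB96 has been reported to bind.
FAR8: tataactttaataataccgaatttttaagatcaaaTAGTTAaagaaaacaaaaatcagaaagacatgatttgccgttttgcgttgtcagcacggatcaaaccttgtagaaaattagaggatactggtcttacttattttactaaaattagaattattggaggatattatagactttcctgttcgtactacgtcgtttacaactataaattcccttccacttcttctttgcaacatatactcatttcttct
FAR1: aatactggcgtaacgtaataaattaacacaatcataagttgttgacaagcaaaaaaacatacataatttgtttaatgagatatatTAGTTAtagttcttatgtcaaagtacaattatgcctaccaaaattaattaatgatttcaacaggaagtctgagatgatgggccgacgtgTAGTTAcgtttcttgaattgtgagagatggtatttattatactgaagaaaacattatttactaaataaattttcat
CER2: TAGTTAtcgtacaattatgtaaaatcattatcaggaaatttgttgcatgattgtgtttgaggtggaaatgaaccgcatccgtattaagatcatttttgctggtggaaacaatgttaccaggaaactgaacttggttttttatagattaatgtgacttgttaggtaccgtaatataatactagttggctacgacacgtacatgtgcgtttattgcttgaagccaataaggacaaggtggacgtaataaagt
KCS6: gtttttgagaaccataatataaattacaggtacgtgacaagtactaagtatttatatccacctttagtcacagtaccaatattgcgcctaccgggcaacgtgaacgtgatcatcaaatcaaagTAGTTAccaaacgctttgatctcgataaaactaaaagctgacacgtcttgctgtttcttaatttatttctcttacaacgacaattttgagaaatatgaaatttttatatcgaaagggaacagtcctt
CER3: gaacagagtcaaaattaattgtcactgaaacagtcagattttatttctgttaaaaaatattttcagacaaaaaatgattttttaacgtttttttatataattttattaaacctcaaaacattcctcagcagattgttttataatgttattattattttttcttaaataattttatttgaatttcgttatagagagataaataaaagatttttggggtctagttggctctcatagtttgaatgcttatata

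TAACTA, searched on both strands of these windows, was found in 5 of the 10 members, namely KCS6, CER2, FAR1, FAR5 and FAR8, and in 20.6% of 27443 promoters of the same length. TAACTC was found in 1 member, CER1, and in 11.1% of all promoters. No member's window held the L1 box of epidermal genes (TAAATGCA or TAAATGTA, 4.49% of promoters) or the GCC box (GCCGCC, 1.87% of promoters). These are matches of letters in the Col-0 reference, and the sequence of the eds1-2 line was not analysed here.

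FAR8 lies at chr3:16151123-16154607 on the plus strand, has 10 exons and encodes 496 residues. FAR4, FAR5 and FAR8 follow each other there, with 9545 bases between FAR4 and FAR5 and 8852 bases between FAR5 and FAR8, and EDS1 is 1.6 Mb further along. The FAR8 protein is 85.5% identical to FAR5, 65.7% to FAR4, 65.2% to FAR1 and 50.2% to CER4. The longest run of bases that the FAR8 transcript shares exactly is 35 with FAR5 and 36 with FAR4. KCS1 and KCS6 share 57.6% of residues and CER1 and CER3 share 34.9%.

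FAR8 was counted mainly in the TPR1-GFP eds1-2 line. It had 87, 93 and 203 counts in the 3 TPR1-GFP eds1-2 libraries (4.19, 4.14 and 9.68 CPM), 2, 5 and 2 counts in TPR1-GFP sid2-1 (0.1005, 0.206 and 0.0675 CPM), and no count in any TPR1-GFP or Col-0 library. The eds1-2 libraries stood above all 9 others, and the sid2-1 libraries lay just above 0. In all, 383 counts in TPR1-GFP eds1-2 stood against 9 in TPR1-GFP sid2-1, a description with no test, since FAR8 was chosen for these counts. Taking 3 counts over the group as the floor for a genotype with none, FAR8 was at least 175-fold higher in TPR1-GFP eds1-2 than in TPR1-GFP and at least 129-fold higher than in Col-0. TPR1-GFP sid2-1 was 47.0-fold lower than TPR1-GFP eds1-2.

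In the sid2-1 line, its 9 counts were at least 3.57-fold above the floor of TPR1-GFP and at least 2.64-fold above that of Col-0. The lowest sum of a gene over the 12 libraries of the table is 101 counts, so FAR8 is in it only through its counts in the eds1-2 line, and its values in the sid2-1 line are a description, with no test. LTPG2, a lipid transfer protein of the wax export route on the same chromosome arm, was not called in any comparison, with a log2 difference of -0.01 in TPR1-GFP eds1-2 against TPR1-GFP.

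**Figure D1:**
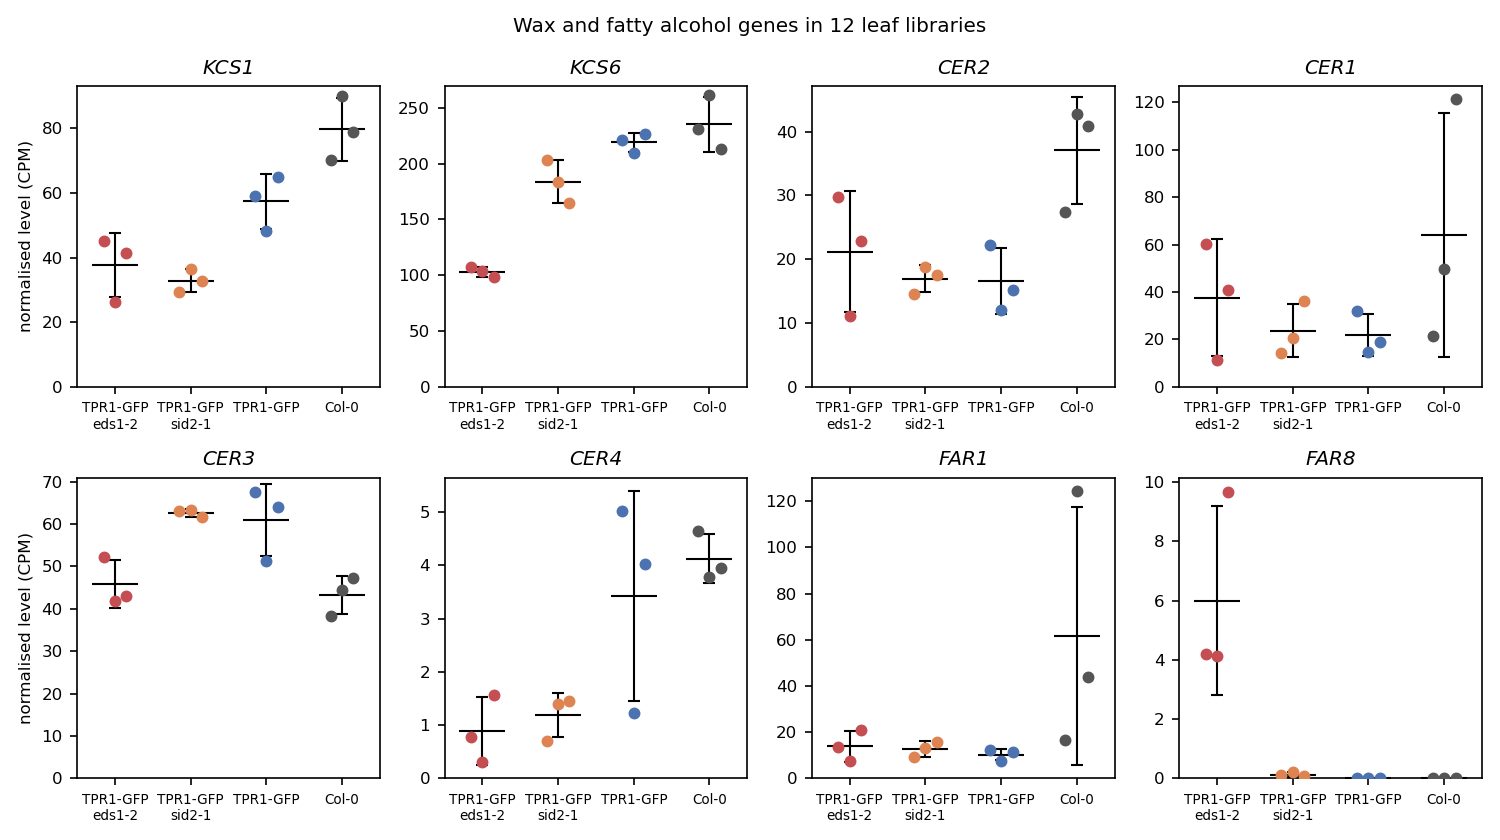
Normalised level in CPM (TMM scaling) of the 8 members in 12 leaf libraries; points are libraries, the horizontal bar is the genotype mean and the whiskers are 1 SD (n = 3). FAR8 is at 4.14 to 9.68 CPM in TPR1-GFP eds1-2 and at 0 in TPR1-GFP and Col-0, KCS6 is lowest in TPR1-GFP eds1-2, and CER1 and FAR1 spread widest in Col-0.

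The stretch around FAR8 held further genes that differed in the eds1-2 line. Of the 14 other genes tested with locus codes AT3G44400 to AT3G44700, 9 were lower and none higher in TPR1-GFP eds1-2 than in TPR1-GFP, which is 64.3% called, against 52.5% of genes outside the wider stretch AT3G40000 to AT3G55000. Against Col-0, 7 were lower and none higher (50% called, against 16.9% elsewhere). All the called neighbours thus lay on the lower side in TPR1-GFP eds1-2. In TPR1-GFP against Col-0, 6 of the 14 were higher and 2 lower (57.1% called, against 53.8% elsewhere). In that wider stretch, 30.5% of 837 genes were called in TPR1-GFP eds1-2 against Col-0 and 4.06% differed by over 3 log2 units, against 16.9% and 0.876% of the 18039 genes elsewhere. These shares carry no test.

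AT3G44430, annotated as an unknown protein, had 0, 0.0445 and 0.143 CPM in TPR1-GFP eds1-2, against 23.3, 23.1 and 20.7 CPM in TPR1-GFP. It was close to absent in the eds1-2 line only, since TPR1-GFP sid2-1 held 23.9 to 24.9 CPM and Col-0 25.1 to 29.98 CPM; the log2 change against TPR1-GFP was -8.37 (SE 0.27, adjusted p = 3.59e-09 by edgeR's quasi-likelihood test with Benjamini-Hochberg adjustment over all genes, which gives every adjusted p below), and -9.63 without TPR1-GFP eds1-2 replicate 3. AT3G44630 and AT3G44480, both annotated as TIR-NBS-LRR disease resistance proteins, fell by 3.005 (SE 0.16) and 2.95 (SE 0.15) on the log2 scale in TPR1-GFP eds1-2 against TPR1-GFP (adjusted p = 2.5e-07 for both). Both also fell against Col-0, by 1.44 (SE 0.15, adjusted p = 9.94e-05) for AT3G44630 and 1.86 (SE 0.15, adjusted p = 1.38e-05) for AT3G44480. In TPR1-GFP against Col-0 both rose, AT3G44630 by 1.57 (SE 0.15, adjusted p = 1.34e-05) and AT3G44480 by 1.09 (SE 0.14, adjusted p = 9.75e-05). The neighbours hold several such receptor genes, and whether these share reads was not tested.

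**Figure D2:**
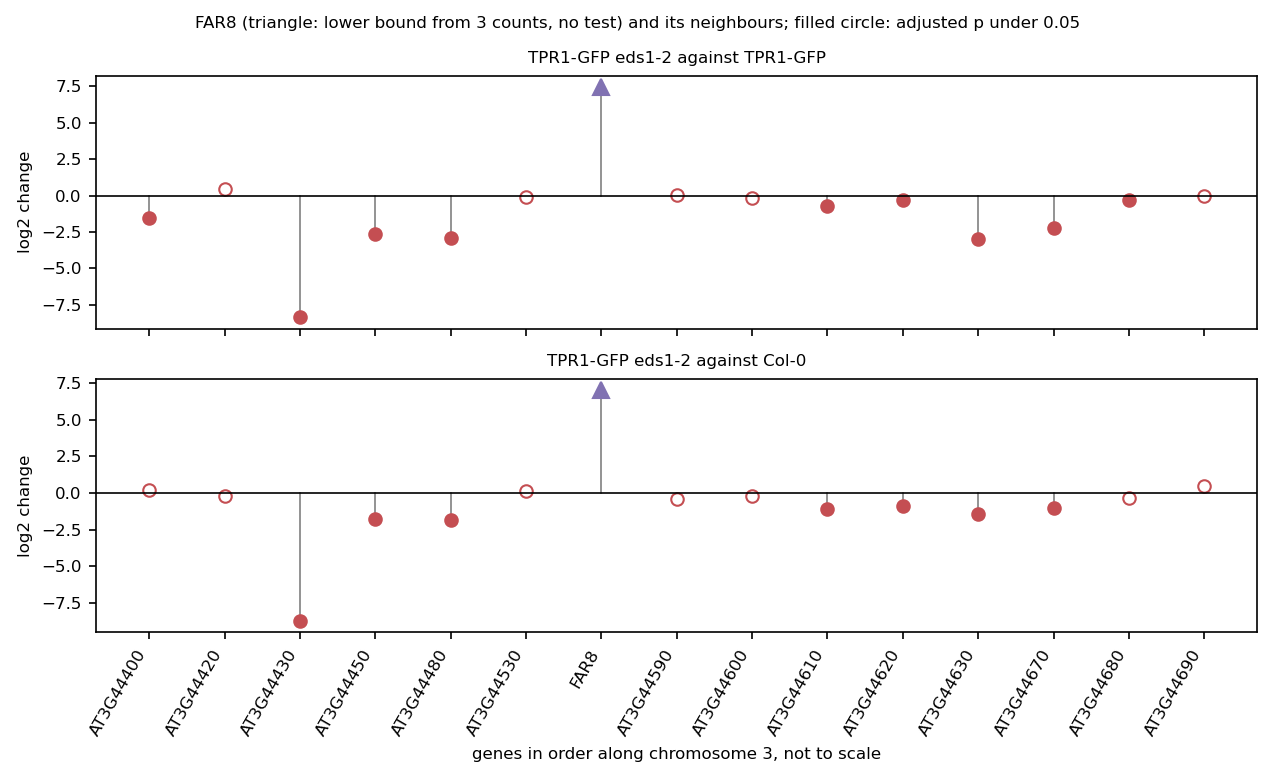
Log2 change of FAR8 and its 14 tested neighbours (AT3G44400 to AT3G44700) in TPR1-GFP eds1-2 against TPR1-GFP (top) and against Col-0 (bottom), in gene order, not to scale; filled circles passed an adjusted p of 0.05, and the triangle is the lower bound for FAR8. FAR8 stands at least 175-fold and at least 129-fold up, AT3G44430 lies at -8.37 and -8.71, and the other called genes lie below 0.

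For the remaining members the question was how the transgene and each added mutation went with wax gene levels. In TPR1-GFP against Col-0, CER3 rose and KCS1, CER2 and FAR1 fell, so 1 of 7 members with counts was higher and 3 were lower, beside 27.5% of all 18877 tested genes called higher and 26.4% called lower (53.9% either way). With eds1-2 added, KCS1, KCS6, CER3 and CER4 fell against TPR1-GFP (4 of 7 lower, none higher; 27.7% of all genes lower and 25.2% higher, 52.9% in all). With sid2-1 added, KCS1 alone of the 7 members without FAR8 fell against TPR1-GFP (7.14% of all genes lower and 9.7% higher, 16.8% in all). Between the double lines, KCS6 and CER3 were higher in TPR1-GFP sid2-1 than in TPR1-GFP eds1-2 (2 of 7 higher, none lower; 19.5% of all genes higher and 14.9% lower, 34.4% in all).

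Against Col-0, 4 of 7 members were lower in TPR1-GFP eds1-2 (KCS1, KCS6, CER4 and FAR1) and none higher, where 8.02% of all genes were lower and 9.48% higher (17.5% in all). In TPR1-GFP sid2-1 against Col-0, 5 of the 7 without FAR8 were lower (KCS1, KCS6, CER2, CER4 and FAR1). In that comparison 1 was higher (CER3), where 19.9% of all genes were lower and 22.1% higher (42.1% in all). These comparisons share their genotypes and are not independent of each other. The median log2 change of the 7 members without FAR8 was -1.08 in TPR1-GFP eds1-2 against Col-0, and all genes had a median of -0.05. In leaves ground whole, fewer epidermal cells and less RNA per cell cannot be told apart.

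The split of all calls depended on scaling. Of the called genes, 51% were higher in TPR1-GFP against Col-0, and 72.9% when libraries were scaled by their total only, which moved the median of all genes by 0.25 log2 units. In TPR1-GFP eds1-2 against TPR1-GFP the share was 47.6%, 32.6% by total only (median moved by -0.17) and 59.7% by upper quartile (median moved by 0.13). It was 57.6% and by total only 38.1% in TPR1-GFP sid2-1 against TPR1-GFP, 54.2% and 70.8% in TPR1-GFP eds1-2 against Col-0, and 52.6% and 76.5% in TPR1-GFP sid2-1 against Col-0 (median moved by 0.17). Between the double lines 56.7% were higher in TPR1-GFP sid2-1, 70% by total only and 43.2% by upper quartile. Of the member calls, scaling by total only ended those of KCS1 in TPR1-GFP against Col-0 (adjusted p = 0.326) and of KCS6 in TPR1-GFP sid2-1 against Col-0 (adjusted p = 0.171), and it added KCS6 in TPR1-GFP sid2-1 against TPR1-GFP (log2 -0.34, adjusted p = 0.0423). Upper-quartile scaling ended KCS1 (adjusted p = 0.0518) and CER3 (adjusted p = 0.0788) in TPR1-GFP eds1-2 against TPR1-GFP.

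**Figure D3:**
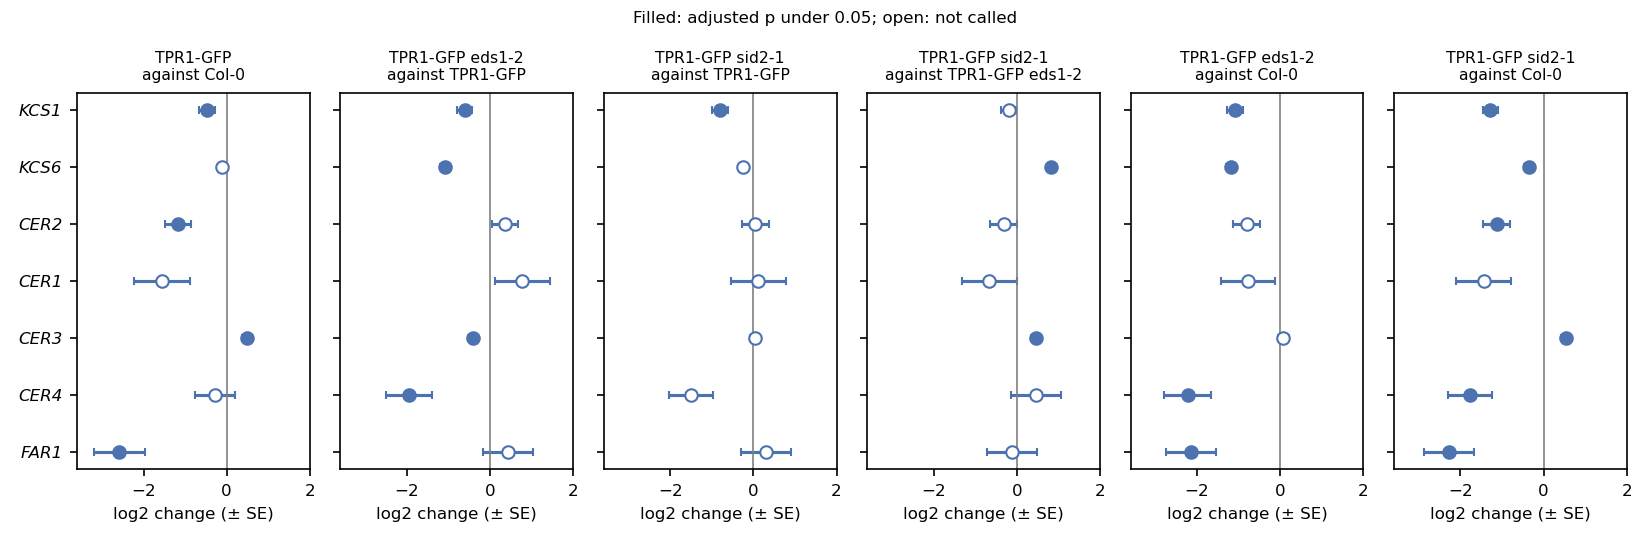
Log2 change with its SE for 7 members in 6 comparisons (edgeR, 3 libraries per genotype, the genotype named first over the other); filled points passed an adjusted p of 0.05. KCS1 lies left of 0 in all panels and is filled in all but the comparison of the double lines, KCS6 is at -1.09 and -1.19 where TPR1-GFP eds1-2 is named first, and FAR1 is at -2.14 to -2.58 in the 3 panels against Col-0.

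Among the elongation genes, KCS1 was called lower in 5 comparisons. KCS1, a condensing enzyme of broad expression, had 45.0, 26.4 and 41.6 CPM in TPR1-GFP eds1-2, 29.2, 36.5 and 32.9 CPM in TPR1-GFP sid2-1, 59.0, 48.2 and 65.1 CPM in TPR1-GFP, while Col-0 had 70.3, 89.9 and 78.8 CPM. Both double lines lay below TPR1-GFP in every library, and TPR1-GFP lay below Col-0. KCS1 fell by 0.61 on the log2 scale in TPR1-GFP eds1-2 against TPR1-GFP (SE 0.19, adjusted p = 0.0159), by 0.80 in TPR1-GFP sid2-1 against TPR1-GFP (SE 0.19, adjusted p = 0.0154) and by 0.47 in TPR1-GFP against Col-0 (SE 0.18, adjusted p = 0.0459). Against Col-0 it fell by 1.08 in TPR1-GFP eds1-2 (SE 0.19, adjusted p = 0.00247) and by 1.28 in TPR1-GFP sid2-1 (SE 0.19, adjusted p = 0.000358). The call in TPR1-GFP against Col-0 was lost without Col-0 replicate 2 (adjusted p = 0.142) or 3 (0.0858) and without TPR1-GFP replicate 1 (0.075) or 2 (0.166), and the authors' deposited table has an adjusted p of 0.0516 for it. The KCS1 calls against TPR1-GFP were lost without TPR1-GFP replicate 3 (adjusted p = 0.0656 for the eds1-2 line and 0.0636 for the sid2-1 line), and for the sid2-1 line also without its replicate 1 (0.0562).

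KCS6, the main condensing enzyme of wax chains in the shoot epidermis, fell in the eds1-2 line. It had 107, 104 and 98.5 CPM in TPR1-GFP eds1-2, 203, 184 and 165 CPM in TPR1-GFP sid2-1, 221, 210 and 226 CPM in TPR1-GFP, while Col-0 had 231, 261 and 213 CPM. The eds1-2 libraries were close to each other and below all others. KCS6 was 2.12-fold lower in TPR1-GFP eds1-2 than in TPR1-GFP (log2 -1.09, SE 0.11, adjusted p = 1.36e-05) and 2.28-fold lower than in Col-0 (log2 -1.19, SE 0.11, adjusted p = 2.83e-05). It was 1.78-fold higher in TPR1-GFP sid2-1 than in TPR1-GFP eds1-2 (log2 0.83, SE 0.10, adjusted p = 0.000127). TPR1-GFP sid2-1 was 1.28-fold lower than Col-0 (log2 -0.36, SE 0.10, adjusted p = 0.0172), a call lost without Col-0 replicate 2 (adjusted p = 0.0623) or TPR1-GFP sid2-1 replicate 3 (0.0678). TPR1-GFP and Col-0 overlapped (log2 -0.10, SE 0.10, adjusted p = 0.428).

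CER2, the partner of KCS6 for the longest chains, had 29.7, 11.05 and 22.8 CPM in TPR1-GFP eds1-2, 14.6, 18.8 and 17.5 CPM in TPR1-GFP sid2-1, 22.2, 12.1 and 15.2 CPM in TPR1-GFP, while Col-0 had 27.5, 42.8 and 41.0 CPM. The TPR1-GFP and sid2-1 libraries lay below every Col-0 library, and the eds1-2 libraries spread across both ranges. CER2 was 2.25-fold lower in TPR1-GFP than in Col-0 (log2 -1.17, SE 0.32, adjusted p = 0.00973) and 2.18-fold lower in TPR1-GFP sid2-1 than in Col-0 (log2 -1.13, SE 0.32, adjusted p = 0.0166), the second call being lost without Col-0 replicate 3 (adjusted p = 0.0504) or TPR1-GFP sid2-1 replicate 1 (0.0582). In TPR1-GFP eds1-2 it was not called against TPR1-GFP (log2 0.36, SE 0.32, adjusted p = 0.37; 0.67 and adjusted p = 0.045 without TPR1-GFP eds1-2 replicate 2). Against Col-0 it was not called either (log2 -0.81, SE 0.32, adjusted p = 0.107; -1.13 and adjusted p = 0.0448 without TPR1-GFP eds1-2 replicate 1). Its relative CER26, which acts with elongases on other chain lengths, was 2.06-fold lower in TPR1-GFP than in Col-0 (log2 -1.04, SE 0.11, adjusted p = 2.71e-05) and 1.64-fold higher in TPR1-GFP eds1-2 than in TPR1-GFP (log2 0.72, SE 0.11, adjusted p = 0.000286).

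Of the alkane pair, CER3 passed the test in 4 comparisons and CER1 in none. CER3 had 52.3, 41.9 and 43.1 CPM in TPR1-GFP eds1-2, 62.9, 63.3 and 61.6 CPM in TPR1-GFP sid2-1, 67.4, 51.4 and 64.0 CPM in TPR1-GFP, while Col-0 had 38.3, 44.3 and 47.2 CPM. All TPR1-GFP and sid2-1 libraries but 1 stood above 60 CPM, while every Col-0 library stood under 50. CER3 rose by 0.49 log2 units in TPR1-GFP against Col-0 (SE 0.12, adjusted p = 0.00499) and by 0.53 in TPR1-GFP sid2-1 against Col-0 (SE 0.12, adjusted p = 0.00505). It fell by 0.41 in TPR1-GFP eds1-2 against TPR1-GFP (SE 0.12, adjusted p = 0.0132) and was 0.45 higher in TPR1-GFP sid2-1 than in TPR1-GFP eds1-2 (SE 0.12, adjusted p = 0.0137). Without TPR1-GFP eds1-2 replicate 3 these 2 calls were lost (adjusted p = 0.0531 and 0.0576).

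CER1, which with CER3 forms alkanes, had 60.3, 11.4 and 41.0 CPM in TPR1-GFP eds1-2, 14.3, 20.6 and 36.2 CPM in TPR1-GFP sid2-1, 32.02, 14.9 and 18.9 CPM in TPR1-GFP, while Col-0 had 21.6, 49.5 and 121 CPM. The genotypes overlapped throughout, and the highest Col-0 library was 5.63 times the lowest. CER1 passed the test in none of the 6 comparisons (log2 -1.56, SE 0.66, adjusted p = 0.067 for TPR1-GFP against Col-0; log2 -1.43, SE 0.66, adjusted p = 0.102 for TPR1-GFP sid2-1 against Col-0). Without Col-0 replicate 1 both of these were called (log2 -1.97, adjusted p = 0.0184, and log2 -1.85, adjusted p = 0.0321). Its neighbour and relative CER1-LIKE1 had 2, 2 and 2 counts in TPR1-GFP eds1-2, 7, 4 and 16 in TPR1-GFP sid2-1, 26, 36 and 21 in TPR1-GFP, and 1, 1 and 2 in Col-0, a log2 rise of 3.82 in TPR1-GFP against Col-0 (SE 0.50, adjusted p = 9.11e-05) and a fall by 3.26 in TPR1-GFP eds1-2 against TPR1-GFP (SE 0.47, adjusted p = 0.000161). Reads of the pair may be split between them by the counting, which was not tested.

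Of the alcohol-forming reductases, CER4 was low in leaves and lower still in both double lines. It had 0.770, 0.312 and 1.57 CPM in TPR1-GFP eds1-2, 0.703, 1.40 and 1.45 CPM in TPR1-GFP sid2-1, 5.03, 1.23 and 4.02 CPM in TPR1-GFP, while Col-0 had 4.65, 3.78 and 3.96 CPM. Every library of the double lines stood below every Col-0 library, while TPR1-GFP replicate 2 stood among the double lines. CER4 was 4.67-fold lower in TPR1-GFP eds1-2 than in Col-0 (log2 -2.22, SE 0.56, adjusted p = 0.0189), 3.41-fold lower in TPR1-GFP sid2-1 than in Col-0 (log2 -1.77, SE 0.53, adjusted p = 0.0202) and 3.85-fold lower in TPR1-GFP eds1-2 than in TPR1-GFP (log2 -1.95, SE 0.56, adjusted p = 0.0121). The first of these calls was lost without TPR1-GFP eds1-2 replicate 1 (adjusted p = 0.0565) or 2 (0.0611), and the second without TPR1-GFP sid2-1 replicate 1 (0.0752). Without TPR1-GFP eds1-2 replicate 3 the change of CER4 in TPR1-GFP eds1-2 was larger, at log2 -2.93 against Col-0 (adjusted p = 0.0147) and -2.66 against TPR1-GFP (adjusted p = 0.00668). In TPR1-GFP sid2-1 against TPR1-GFP the log2 change of -1.49 (SE 0.53) did not pass (adjusted p = 0.0738); it passed without TPR1-GFP replicate 2 (log2 -1.91, adjusted p = 0.0326) and in DESeq2 (adjusted p = 0.0298). TPR1-GFP and Col-0 were not told apart (log2 -0.28, SE 0.49, adjusted p = 0.654), and without TPR1-GFP replicate 2 this value was 0.13 (adjusted p = 0.817).

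FAR1 was lower in all 3 transgenic genotypes than in Col-0. It had 13.7, 7.39 and 20.8 CPM in TPR1-GFP eds1-2, 9.09, 13.3 and 15.7 CPM in TPR1-GFP sid2-1, 12.2, 7.42 and 11.3 CPM in TPR1-GFP, while Col-0 had 16.7, 124 and 44.0 CPM. Col-0 replicate 1 stood close to the transgenic libraries and Col-0 replicate 2 far above all others. FAR1 was 5.997-fold lower in TPR1-GFP than in Col-0 (log2 -2.58, SE 0.61, adjusted p = 0.00418), 4.82-fold lower in TPR1-GFP sid2-1 (log2 -2.27, SE 0.60, adjusted p = 0.0115) and 4.42-fold lower in TPR1-GFP eds1-2 (log2 -2.14, SE 0.60, adjusted p = 0.0308). The last call was lost without Col-0 replicate 2 (log2 -1.13, adjusted p = 0.136) and without TPR1-GFP eds1-2 replicate 1 (-2.13, 0.0793) or 2 (-1.84, 0.118), and also in a fit of the 2 genotypes alone (-2.11, 0.109). Without Col-0 replicate 2 the log2 change of FAR1 was also smaller in TPR1-GFP (-1.57, adjusted p = 0.0157) and in TPR1-GFP sid2-1 (-1.25, adjusted p = 0.0493) against Col-0. Differences among the transgenic genotypes did not pass the test, at most 0.44 log2 units (SE 0.60, adjusted p = 0.564) for TPR1-GFP eds1-2 against TPR1-GFP.

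The members' order by level per length, in CPM per kilobase of exon, kept KCS6 first in every genotype, with a mean of 39.5 in TPR1-GFP eds1-2, 70.4 in TPR1-GFP sid2-1, 83.9 in TPR1-GFP and 90.0 in Col-0, and no overlap with the next gene. KCS1 came second in TPR1-GFP eds1-2 (18.3), TPR1-GFP (27.98) and Col-0 (38.8), but in TPR1-GFP sid2-1 CER3 (24.2) stood above KCS1 (16.02) without overlap. In Col-0, KCS1, FAR1, CER2, CER1 and CER3 overlapped each with the next in order. In TPR1-GFP eds1-2 the genes from KCS1 down to FAR8 overlapped each with the next. There FAR8 (2.96 CPM per kilobase) stood above CER4 (0.452) without overlap, whereas in the other 3 genotypes FAR8 came last.

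Within each genotype, the same library was the lowest for most members. How often it was lowest over all genes was not counted. TPR1-GFP replicate 2 was the lowest of its 3 libraries for 7 of the 7 members with counts there, TPR1-GFP eds1-2 replicate 2 for 6 of 7, and Col-0 replicate 1 and TPR1-GFP sid2-1 replicate 1 for 5 of 7 each. The part of these libraries in the results is given above by leaving each out.

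Epidermal markers also differed between genotypes. Of ATML1, PDF2, PDF1, HDG2 and FDH, all 5 were among the genes analysed and none was at 0. Their summed level was 324 to 459 CPM in TPR1-GFP eds1-2, 325 to 393 CPM in TPR1-GFP sid2-1, 305 to 372 CPM in TPR1-GFP and 441 to 658 CPM in Col-0. In TPR1-GFP against Col-0, 4 of 5 fell (ATML1 by 0.90, PDF2 by 0.67, PDF1 by 3.37 and FDH, itself a KCS enzyme, by 0.68 on the log2 scale), and HDG2 had 0.04. Of all genes, 26.4% were lower and 27.5% higher in that comparison. The PDF1 change was -4.32 without TPR1-GFP replicate 1, and its call was lost without Col-0 replicate 3 (log2 -2.39, adjusted p = 0.0892) and without TPR1-GFP replicate 2 (0.0719) or 3 (0.0638). In TPR1-GFP eds1-2 against TPR1-GFP, ATML1 and PDF2 rose, by 0.52 and 0.39, and both calls were lost without TPR1-GFP replicate 2 (adjusted p = 0.144 and 0.154) or 3 (0.0731 and 0.0558) and without TPR1-GFP eds1-2 replicate 1 (0.147 and 0.161) or 3 (0.0976 and 0.108), PDF2 also without TPR1-GFP replicate 1 (0.0695). No epidermal marker was called in TPR1-GFP sid2-1 against TPR1-GFP (16.8% of all genes called). There PDF1 had a log2 change of 3.11 (SE 1.05, adjusted p = 0.064), with every sid2-1 library above every TPR1-GFP library. The other markers lay from -0.20 (PDF2) to 0.14 (FDH). Against Col-0, 3 of 5 were lower in TPR1-GFP sid2-1 and 1 of 5 in TPR1-GFP eds1-2 (19.9% and 8.02% of all genes). ATML1 and PDF2 (2 of 5) were lower in TPR1-GFP sid2-1 than in TPR1-GFP eds1-2 (14.9% of all genes). That ATML1 call was lost without any 1 of the TPR1-GFP sid2-1 replicates (adjusted p = 0.12, 0.0678 and 0.0579 for 1, 2 and 3) and without TPR1-GFP eds1-2 replicate 1 (0.139) or 3 (0.099). Of the members, KCS1, KCS6, CER3 and CER4 were called lower in TPR1-GFP eds1-2 against TPR1-GFP. In TPR1-GFP against Col-0, KCS1, CER2 and FAR1 were called lower and CER3 higher. The part of epidermal content in these wax gene results was not tested.

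Markers of other leaf cells also differed between genotypes. The 4 leaf mesophyll markers summed to 29165 to 35892 CPM in TPR1-GFP eds1-2, 22750 to 25338 CPM in TPR1-GFP sid2-1, 19147 to 23093 CPM in TPR1-GFP and 30424 to 40612 CPM in Col-0. Of them, 3 of 4 were higher in TPR1-GFP eds1-2 than in TPR1-GFP (25.2% of all genes). Likewise 3 of 4 were lower in TPR1-GFP than in Col-0 (26.4% of all genes). The 3 vasculature markers summed to 361 to 407 CPM in TPR1-GFP eds1-2, 236 to 254 CPM in TPR1-GFP sid2-1, 224 to 245 CPM in TPR1-GFP and 212 to 297 CPM in Col-0. All 3 were higher in TPR1-GFP eds1-2 than in TPR1-GFP, where 25.2% of all genes were. The 4 guard cell markers summed to 76.4 to 123 CPM in TPR1-GFP eds1-2, 90.5 to 99.4 CPM in TPR1-GFP sid2-1, 73.2 to 80.1 CPM in TPR1-GFP and 96.7 to 117 CPM in Col-0. Of these, 1 (KAT1) was lower in TPR1-GFP than in Col-0, and 2 (GC1 and MYB60) were higher in TPR1-GFP eds1-2 than in TPR1-GFP. The 2 trichome markers analysed summed to 6.37 to 8.47 CPM in TPR1-GFP eds1-2, 4.75 to 6.75 CPM in TPR1-GFP sid2-1, 2.47 to 2.84 CPM in TPR1-GFP and 4.77 to 9.98 CPM in Col-0. GL2 was called lower in TPR1-GFP than in Col-0, and TRY was called higher in TPR1-GFP eds1-2 than in TPR1-GFP. ESB1, the 1 root endodermis marker of 3 among the genes analysed, stood at 2.95 to 5.198 CPM over all libraries. The part of any of these in the wax gene results was not tested.

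The other genes of the surface pathway were read from 6 lists of 60 genes without the members, of which 45 were tested. These lists too were chosen with earlier results of these data known. In TPR1-GFP against Col-0, 19 fell and 4 rose, beside 26.4% of all genes lower and 27.5% higher, with a median log2 change of -0.41 against 0.01 for all genes. Without TPR1-GFP replicate 1 the count of rises was 1, and without Col-0 replicate 1 or 3 it was 2. Of 12 wax synthesis genes 6 fell, among them CER26 (given above) and CER26-LIKE (log2 -0.93, SE 0.24, adjusted p = 0.00728), and CER1-LIKE1 rose. Of 6 export genes 2 fell, the lipid transfer protein LTPG1 (log2 -1.19, SE 0.27, adjusted p = 0.00304) and the transporter ABCG12 (log2 -0.43, SE 0.11, adjusted p = 0.0059). Of 15 cutin synthesis genes 7 fell and none rose. HTH, a protein that keeps floral organs from fusing, had -2.03 (SE 0.55, adjusted p = 0.00879), and the fatty acid hydroxylase CYP86A4 had -1.58 (SE 0.44, adjusted p = 0.00934).

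The 11 regulators tested in TPR1-GFP against Col-0 split into 3 higher and 4 lower, beside 27.5% of all genes higher and 26.4% lower (53.9% in all). MYB96, an activator of wax genes under drought, fell by 1.02 (SE 0.18, adjusted p = 0.00057), and DEWAX, a repressor of wax genes in the dark, fell by 0.80 (SE 0.13, adjusted p = 0.000305). SHN3, an activator of cutin genes, rose by 0.83 (SE 0.28, adjusted p = 0.0261), and MYB30, an activator of very-long-chain lipid genes in immunity, rose by 0.56 (SE 0.21, adjusted p = 0.0453). The SHN3 call was lost without Col-0 replicate 1 (adjusted p = 0.0793) or 2 (0.0906) or TPR1-GFP replicate 1 (0.115), and the MYB30 call without Col-0 replicate 1 (0.127) or 3 (0.151) or TPR1-GFP replicate 1 (0.0608) or 3 (0.194).

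In TPR1-GFP eds1-2 against TPR1-GFP, 14 of the 45 rose and 8 fell (median log2 0.14, all genes -0.03), beside 25.2% of all genes higher and 27.7% lower (52.9% in all). The share called is thus near that of all genes, and the rises were 6 without TPR1-GFP eds1-2 replicate 1, 9 without its replicate 3 and 7 without TPR1-GFP replicate 2. Without TPR1-GFP replicate 3 the falls were 5. Cutin synthesis had 7 of 15 higher and none lower, among them the acyltransferase DCR (log2 1.97, SE 0.56, adjusted p = 0.0119) and the hydroxylase CYP77A6 (log2 1.40, SE 0.40, adjusted p = 0.0112). The DCR call was lost without TPR1-GFP eds1-2 replicate 1 (adjusted p = 0.0507), and the CYP77A6 call without that library (0.0593) or TPR1-GFP replicate 2 (0.0504). Wax synthesis had 4 higher and 2 lower, export 2 lower (ABCG11 by 0.42, SE 0.12, adjusted p = 0.0139, lost without TPR1-GFP replicate 3 at 0.0548, and ABCG12 by 0.42, SE 0.11, adjusted p = 0.0066) and regulators 3 higher and 4 lower. SHN3 rose by 1.496 (SE 0.26, adjusted p = 0.00058) and MYB106, an activator of epidermal cutin genes, by 1.42 (SE 0.37, adjusted p = 0.00652), while MYB30 fell by 1.84 (SE 0.23, adjusted p = 6.45e-05) and CFL1, a negative regulator of cuticle development, by 1.24 (SE 0.15, adjusted p = 5.03e-05). The wax ester synthase WSD1 rose by 3.97 (SE 1.55, adjusted p = 0.0496) on 40, 2 and 20 counts in TPR1-GFP eds1-2 and 4, 0 and 1 in TPR1-GFP; that call was lost without any TPR1-GFP replicate (adjusted p = 0.0629, 0.143 and 0.118 for 1, 2 and 3) and without TPR1-GFP eds1-2 replicate 1 (0.187) or 3 (0.0833).

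**Figure D4:**
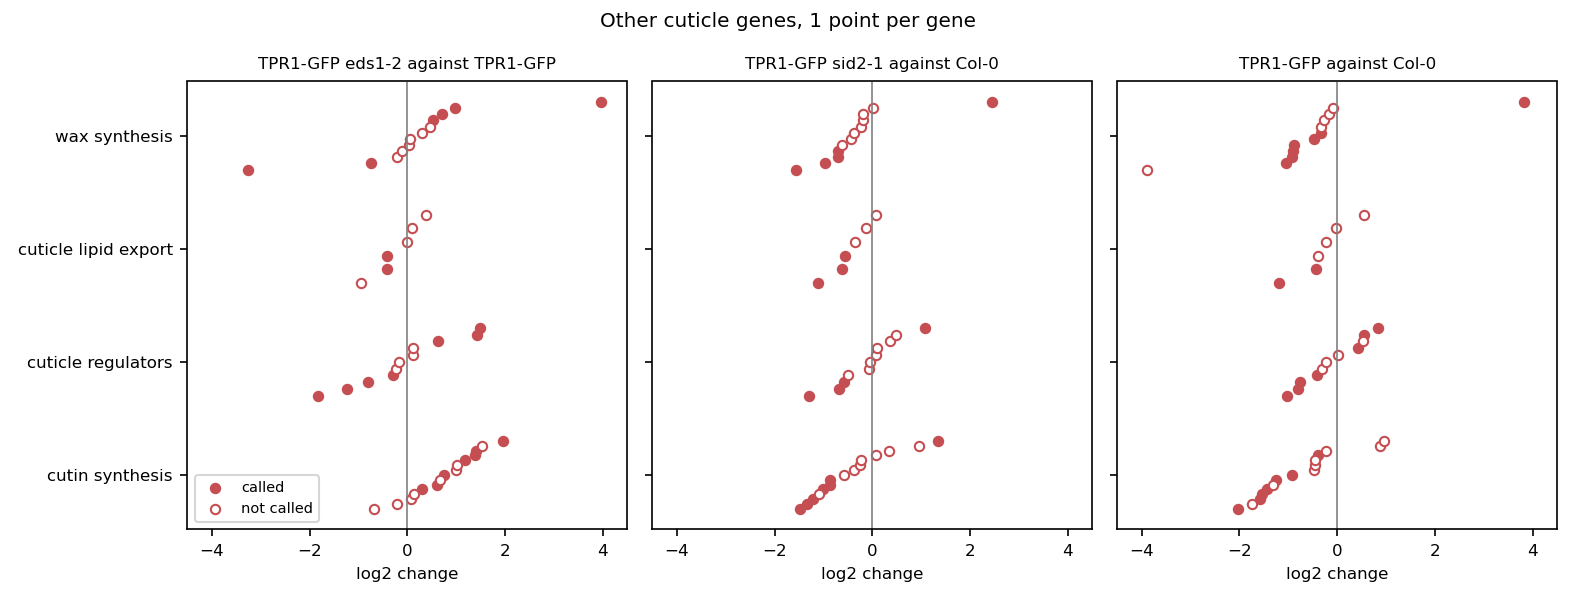
Log2 change of the 44 tested genes of 4 pathway lists in 3 comparisons, 1 point per gene; filled points passed an adjusted p of 0.05. Cutin genes that passed lie right of 0 in TPR1-GFP eds1-2 against TPR1-GFP (7 of 15) and left of 0 in TPR1-GFP against Col-0 (7 of 15), and CER1-LIKE1 is the wax synthesis point at 3.82 in the right panel.

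In TPR1-GFP sid2-1 against TPR1-GFP, 2 of 45 rose and 2 fell, beside 9.7% of all genes higher and 7.14% lower (16.8% in all). DEWAX rose by 0.75 (SE 0.13, adjusted p = 0.00352) and DCR by 2.27 (SE 0.56, adjusted p = 0.0196), while CER1-LIKE1 fell by 1.37 (SE 0.36, adjusted p = 0.0263) and the hydroxylase CYP77A4 by 0.64 (SE 0.16, adjusted p = 0.0227). The DCR call was lost without TPR1-GFP replicate 2 (adjusted p = 0.0748) or 3 (0.0766) or TPR1-GFP sid2-1 replicate 3 (log2 1.19, 0.0571). The CER1-LIKE1 and CYP77A4 calls were lost without TPR1-GFP replicate 2 (0.0942 and 0.0515) or 3 (0.058 and 0.0914) and without TPR1-GFP sid2-1 replicate 1 (0.0691 and 0.0687) or 2 (0.0838 and 0.0669).

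Between the double lines 5 of 45 were higher and 7 lower in TPR1-GFP sid2-1 than in TPR1-GFP eds1-2, beside 19.5% and 14.9% of all genes. MYB30 was 1.36 log2 units higher (SE 0.23, adjusted p = 0.000917), and SHN3 was 1.25 lower (log2 -1.25, SE 0.26, adjusted p = 0.00338). Without TPR1-GFP eds1-2 replicate 2 the lower count was 14, and without its replicate 3 the higher count was 3. Against Col-0, 2 rose and 12 fell in TPR1-GFP eds1-2 (9.48% and 8.02% of all genes), and 3 rose and 16 fell in TPR1-GFP sid2-1 (22.1% and 19.9%). MYB96 fell in both, by 1.25 (SE 0.18, adjusted p = 0.000834) in TPR1-GFP eds1-2 and by 1.30 (SE 0.18, adjusted p = 0.000246) in TPR1-GFP sid2-1. SHN3 was 5.02-fold higher in TPR1-GFP eds1-2 than in Col-0 (log2 2.33, SE 0.28, adjusted p = 0.000254). Of the suberin list 1 of 10 genes was tested, ASFT, which was called in no comparison, and FAR2, FAR6 and FAR7 were not analysed here.

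The genes whose log2 level followed a member most closely over the 12 libraries were found by Pearson's r, as a description; libraries share genotype and scaling. For KCS1 it was ABCG11 (also WBC11), the wax and cutin transporter (r = 0.979), and AT3G52500 and AT1G72480 came next (0.951 and 0.95). For KCS6 it was CYP71B29 (0.974), followed by AT2G03270 (0.962) and AT1G68580 (0.956). CER2 was closest to HHP1 (0.99), AT1G35530 (0.972) and AT1G30440 (0.969), and CER1 to AT4G30845 (0.966), AT1G67430 (0.96) and AT3G05560 (0.959). CER3 was closest to AT4G19970 (0.927), DIN9 (0.922) and WRKY39 (0.92), and CER4 to AT1G63220 (0.907), AT5G09380 (0.902) and AT1G22610 (0.902). For FAR1 they were AT5G27740 (0.947), AT2G20840 (0.93) and AT1G01510 (0.922). FAR8, whose r rests on the 3 eds1-2 libraries, was closest to UF3GT (0.992) and GSTF12 (0.97), genes of anthocyanin modification and transport, and to AT3G44070 (0.969), which lies in the wider stretch around EDS1. Because FAR8 was chosen for its counts in those libraries, nothing is drawn from its ranking.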

How the data were processed

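Each gene of the table deposited by the authors has a read count in every library, a log2 CPM value in every library, and a log2 change and an adjusted p-value (FDR) in 3 comparisons. Per the submitters' processing notes, TopHat2, HTSeq and limma were used on TAIR10; versions and strandedness are not given in the sources used here, so a gene and an antisense partner cannot be told apart. The lowest gene sum in the deposited counts is 101. The authors' log2 columns put TPR1-GFP first, so their sign was turned for the double lines.

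The 12 libraries were fitted together by genotype, with no other covariate, using edgeR 4.0.16 under R 4.3.3 (filterByExpr, TMM scaling, robust quasi-likelihood F test). Benjamini-Hochberg adjustment ran over 18877 genes, and an adjusted p under 0.05 was a call. CPM values are TMM-scaled. An SE is the absolute log2 change over the root of F. The script was tested on simulated data. Members and gene lists were chosen with earlier results of these data known. Named pathway genes are up to 2 called genes in each direction per list, and neighbours the 3 with the largest change. Within a genotype no library was a copy of another, with chi-square over its degrees of freedom at least 6.704 and at most 38.4. Libraries of different genotypes were not compared in this way, but all library totals differ. PDF1 had 104, 380 and 1156 counts in Col-0 replicates 1, 2 and 3, and 104, 376 and 1137 in those of TPR1-GFP sid2-1. Deviations of same-numbered libraries correlated above 0.1 in 8 of 18 pairs, and in all 3 pairs (0.172, 0.22 and 0.309) only for TPR1-GFP sid2-1 with Col-0, where the numbers were taken to pair the libraries. Levels per length used exon lengths of RefSeq's TAIR10.1, protein identities came from its translations (Biopython 1.88), and the deposited files give no coordinates. Alternatives were other scalings, no filter, a replicate block, DESeq2 1.42.0, fits of 2 genotypes, single libraries left out, and the authors' deposited tests.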

Additional observations from a re-analysis of the deposited data

How the results depend on the processing

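The fitted size of the FAR8 change depends on how a count of 0 is handled. With 3 libraries per genotype, calls near the threshold turned on single libraries, as given beside each gene in the report. Of 79 calls of other named genes, whose alternatives were added after seeing the data, 55 kept their call under every alternative run.

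Counts of calls moved by over 1.5 times as follows. Members lower in TPR1-GFP eds1-2 against TPR1-GFP were 2 by upper quartile and 2 in a fit of these 2 genotypes only, and members higher there were 0 to 1 with single libraries left out. Other cuticle genes there were 9 higher by library total only and 5 lower by upper quartile, and 6 to 18 higher and 5 to 8 lower with single libraries left out. In TPR1-GFP sid2-1 against TPR1-GFP, DESeq2 called 1 member higher (FAR8, which is in the table only through the eds1-2 line, so nothing is drawn from it) and 2 lower, library total only called 2 lower, and leaving out single libraries gave 0 to 2 lower. Other cuticle genes there were 5 higher in a fit of the 2 genotypes, 1 higher in the authors' deposited test, 4 lower by library total only, and 1 to 3 higher and 0 to 3 lower with single libraries left out. In TPR1-GFP against Col-0 other cuticle genes higher were 1 to 3 on leaving out single libraries. For TPR1-GFP sid2-1 against TPR1-GFP eds1-2 the same step gave 1 to 2 members higher and 3 to 5 other cuticle genes higher and 5 to 14 lower. It gave 2 to 4 members lower in TPR1-GFP eds1-2 against Col-0 and 3 to 6 in TPR1-GFP sid2-1 against Col-0. DESeq2 called 4 other cuticle genes higher in TPR1-GFP eds1-2 against Col-0 and 2 members higher, FAR8 again among them, in TPR1-GFP sid2-1 against Col-0.

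Changes of sign touched only differences that were not called. By library total only, KCS6 in TPR1-GFP against Col-0 had 0.15, and in TPR1-GFP sid2-1 against TPR1-GFP CER2 had -0.0376 and CER3 -0.0409. With single libraries left out, log2 values ran from -0.68 to 0.13 for CER4 in TPR1-GFP against Col-0. In TPR1-GFP sid2-1 against TPR1-GFP they ran from -0.33 to 0.50 for CER1, -0.14 to 0.32 for CER2 and -0.0702 to 0.12 for CER3. In TPR1-GFP sid2-1 against TPR1-GFP eds1-2 they ran from -0.63 to 0.00695 for CER2 and -0.43 to 0.28 for FAR1, and in TPR1-GFP eds1-2 against Col-0 from -1.30 to 0.0778 for CER1 and -0.0268 to 0.15 for CER3. The cause was not tested.

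The replicate block changed no member call in TPR1-GFP sid2-1 against Col-0, where the numbers were taken, from correlations in these data, to pair libraries. In the other comparisons they were not so taken, though TPR1-GFP eds1-2 and TPR1-GFP correlated at 0.356, 0.355 and -0.0527 for replicates 1, 2 and 3. With the block, KCS1 in TPR1-GFP against Col-0 had -0.48 (adjusted p = 0.0581) and FAR1 in TPR1-GFP eds1-2 against Col-0 had -2.001 (adjusted p = 0.0725).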
